A study of Arabidopsis thaliana with 6 samples.

Results

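Heat shock proteins and their relatives were followed here through the probe sets that carry a single gene whose symbol starts with one of the usual family names (HSP, HSF, HSC, BIP, BAG, FKBP, ROF, CLPB, CPN, CCT, DJA, DJB, DJC or J with a digit, with or without a leading AT). The rule found 10 of the 22746 probe sets tested, each for a different gene. Of these, 7 are chaperones by symbol and by the synonyms in the RefSeq annotation: the small heat shock protein gene ATHSP22.0, the HSP70 gene Hsp70-2, the J-protein gene ATJ1, the HSP100-type gene CLPB2, and the chaperonin genes Cpn60beta2, Cpn60beta3 and Cpn60beta4. The other 3 go against the label, because their symbols only look alike. CCT1 and CCT2 are listed as enzymes that activate phosphorylcholine, not as subunits of the cytosolic chaperonin of the same abbreviation, and CPNIFS is listed as a chloroplast cysteine desulfurase. No heat shock factor, BiP, BAG, FKBP or HSP90 gene is among the 10, so nothing is said here of those families by that rule. No gene is listed for 8730 of the 22746 probe sets, so genes of these families may be on the array without a name.

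The arrays came from whole Arabidopsis thaliana seedlings of the Col-0 ecotype, 14 days old and of the T3 generation, grown at 22 °C with 16 h of light and 8 h of dark. Both groups carry the same estradiol-inducible construct, in which a constitutively expressed chimeric factor, XVE, drives RPXΔC, a version of RPX, a NAC transcription factor, from a LexA promoter. One group of 3 biological replicates received 10 µM estradiol for 2 h, and the other group of 3 received a mock treatment, described as ethanol in one label and as medium without inducer in another. With both groups carrying the transgene, the effects of RPXΔC and of estradiol cannot be told apart, and the labels name no heat treatment in either group. The series is aimed at direct targets of RPX, by its title. Nothing in the labels says how many transgenic lines were used.

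Heat shock proteins are molecular chaperones. Small heat shock proteins hold unfolding proteins in a soluble state, HSP70 proteins refold them with the help of J-proteins and nucleotide exchange factors, HSP100 disaggregases pull proteins out of aggregates, and chaperonins enclose a single protein while it folds. In plants many of these genes are nearly silent at growth temperature and are switched on within minutes of heat by heat shock factors, while others, such as the chaperonins of the chloroplast, are made at all times.

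Signals are the authors' intensities on a linear scale that gives every array the same trimmed mean, with 1 value for each probe set on each array. The median signal lay between 35.7 and 38.7 on the 6 arrays, and no detection call was used, which leaves it unknown whether the dimmest probe sets measure more than background. Shoot and root transcripts were both present: RCA, rubisco activase of the leaf, gave signals of 3720 to 5879, and PYK10, a beta-glucosidase typical of the root, gave 1634 to 2606. The other shoot transcripts measured, LHCB4.2 and LHCB4.3, gave 2163 to 2699 and 74.9 to 113. The other root transcripts measured were dim, with 24.9 to 49.7 for EXPA7 and 17.8 to 29.6 for EXPA18. All estradiol values of EXPA18 lay below its mock values, as in 7.74% of all probe sets. Estradiol replicate 3 had the highest 3'/5' signal ratio of actin control probe sets, a sign of RNA quality, with 15.2 against 4.37 to 6.11 on the other arrays. Mock replicates 1 and 2 had 25S rRNA control signals of 302 and 286, against 918 to 1534 on the other 4 arrays. The part of these properties in the results below was not tested. Signals come from whole seedlings, so fewer cells of a type and less RNA per cell cannot be told apart.

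ATHSP22.0 (AT4G10250), a small heat shock protein of the endoplasmic reticulum, varied most. Its signal was 647, 441 and 18.9 on mock replicates 1, 2 and 3. It was 110.0, 118 and 20.8 on estradiol replicates 1, 2 and 3. Mock replicates 1 and 2 were the highest, replicate 3 was the lowest of each group, and the groups overlapped. Within mock the highest value was 34.2 times the lowest, and within estradiol 5.67 times. The group means were 369 ± 320 in mock and 83.0 ± 54.0 with estradiol (SD, n = 3 each).

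**Figure D1:**
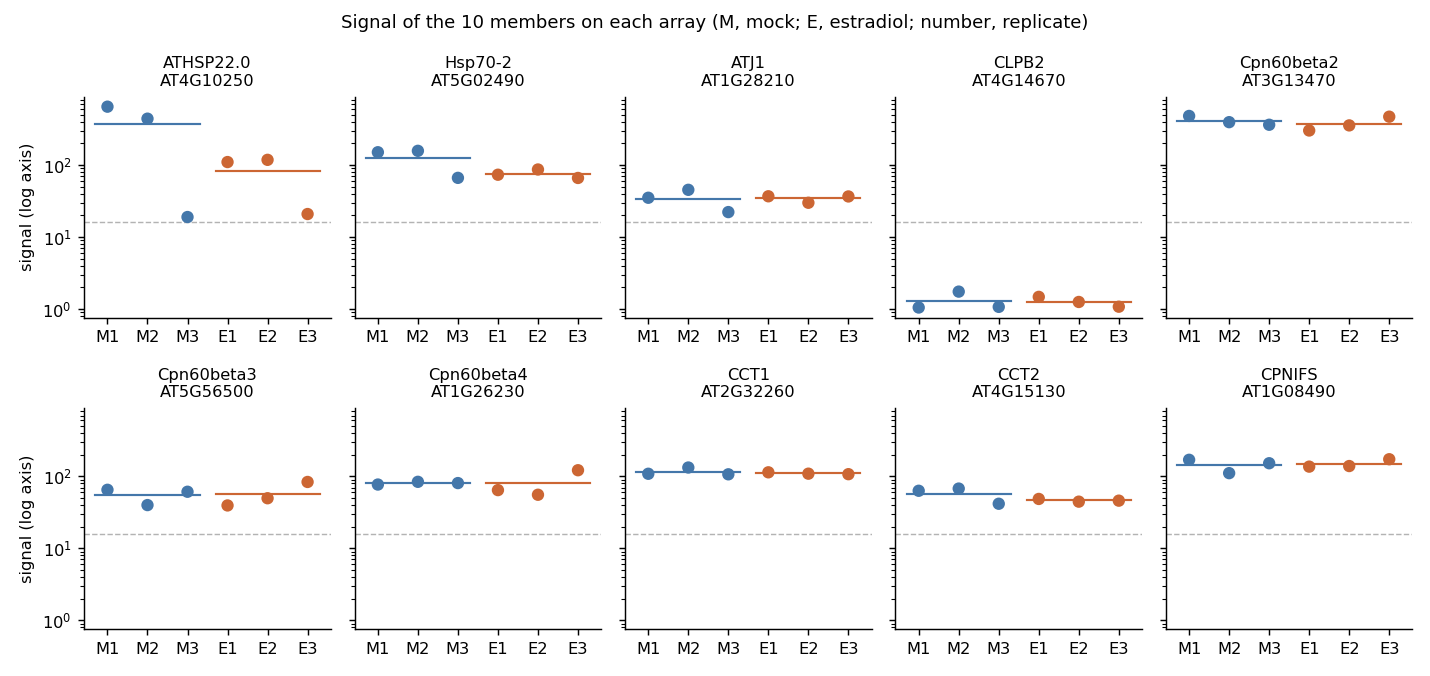
Signal of each of the 10 genes on the 6 arrays, on a log axis shared by all panels; blue points are mock (M) and orange points estradiol (E), numbered by replicate, lines are group means, and the dashed line marks the pseudocount of 16. ATHSP22.0 spans 18.9 to 647 with replicate 3 of each group at the bottom, Hsp70-2 is also highest on mock replicates 1 and 2, over a smaller range, and CLPB2 stays below 2 on every array.

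On the scale of log2(signal + 16), on which all differences below are given and which understates changes of dim probe sets, ATHSP22.0 was lower after estradiol by a mean log2 difference of -1.36 ± 1.12 (SE). The 95% confidence interval ran from -4.02 to 1.299, and limma's p, adjusted over all probe sets, was 0.779. The difference did not exceed the spread between replicates, and the interval holds large changes as well as none. Its size changed with the arrays. Leaving out mock replicate 1, 2 or 3 gave -0.57, -0.83 or -2.69, and leaving out estradiol replicate 3 gave -0.76. Against mock replicate 3 as the only mock array it was 1.29, with the sign turned.

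The same gene can be read between arrays of the same replicate number. The estradiol signal was lower than the mock signal by 5.89-fold in replicate 1 and by 3.74-fold in replicate 2. In replicate 3 the signals were 20.8 with estradiol and 18.9 in mock, a log2 difference of 0.076. The labels do not say what arrays of one number share, so these are descriptions of single pairs of arrays.

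Hsp70-2 (AT5G02490), a cytosolic HSP70, shared 2 features with ATHSP22.0 over a smaller range: mock replicates 1 and 2 were its highest arrays, and replicate 3 was the lowest of each group. Its signal was 151, 158 and 66.3 in mock and 73.3, 86.7 and 66.1 with estradiol. The first 2 mock arrays stood above the other 4, and mock replicate 3 lay at the level of the lowest estradiol array. The log2 difference was -0.55 ± 0.29 (SE), with an interval from -1.24 to 0.13 and an adjusted p of 0.652 in limma, the smallest among the 10 genes. Leaving out mock replicate 2 or 3 gave -0.36 or -0.90, and mock replicate 3 as the only mock array gave 0.14.

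ATJ1 (AT1G28210), a J-protein of mitochondria that assists HSP70, was dim. Its signal was 35.1, 45.2 and 22.2 in mock and 36.8, 29.9 and 36.6 with estradiol. The estradiol values fell inside the range of the mock values, whose lowest was again replicate 3. The log2 difference was 0.031, with an interval from -0.40 to 0.46.

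CLPB2 (AT4G14670), of the HSP100 disaggregase family, gave signals of 1.04 to 1.74 on all 6 arrays. All lie far below the pseudocount of 16, so its log2 difference of -0.0015 carries no information on a change, and no direction is given.

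The 3 chaperonin genes encode beta subunits of the chloroplast chaperonin 60, which folds rubisco subunits and other proteins of the stroma. Cpn60beta2 (AT3G13470) gave 481, 394 and 363 in mock and 302, 356 and 470.1 with estradiol. The groups overlapped, and the log2 difference was -0.14 with an interval from -0.58 to 0.29.

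Cpn60beta3 (AT5G56500) gave 65.1, 39.9 and 61.1 in mock and 39.4, 49.7 and 83.6 with estradiol. Its log2 difference was 0.018, with an interval from -0.57 to 0.60. Cpn60beta4 (AT1G26230), known for folding a subunit of the chloroplast NDH complex, gave 77.0, 84.0 and 80.7 in mock and 64.4, 55.5 and 122 with estradiol. Its log2 difference was -0.061, with an interval from -0.63 to 0.51.

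In all 3 chaperonin genes estradiol replicate 3, whose actin 3'/5' ratio was raised, was the highest of the estradiol arrays. The same held for CPNIFS and, among genes given below, Hop1, Hop2, AT4G02450, AT5G55220, ATERDJ2A, ATERDJ3B and BZIP28. The order was not particular to chaperones. It was also seen in the shoot and root transcripts RCA, LHCB4.3, PYK10, EXPA7 and EXPA18, but not in LHCB4.2. The share of all probe sets with this order was not counted. Without estradiol replicate 3 the log2 differences were -0.31 for Cpn60beta2, -0.22 for Cpn60beta3 and -0.35 for Cpn60beta4. The highest adjusted p of the 3 with all arrays was 0.993 and the lowest 0.868. None of the 3 genes had mock replicates 1 and 2 as its 2 highest arrays, where 14.0% of all probe sets did. That order held for ATHSP22.0 and Hsp70-2, and not for ATJ1 and CLPB2. A difference between families was not tested.

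The 3 enzymes that share only the symbol had differences that did not exceed the spread between replicates. CCT1 (AT2G32260) and CCT2 (AT4G15130), which make the activated choline for phosphatidylcholine, gave 107 to 133 and 41.6 to 67.7 over the 6 arrays. Their log2 differences were -0.062 and -0.22. CPNIFS (AT1G08490), which releases sulfur from cysteine for iron-sulfur clusters in the chloroplast, gave 111 to 173 and a log2 difference of 0.058. The intervals of all 3 include 0 and stay within -0.59 and 0.46.

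Of the 10 genes, 0 differed between estradiol and mock in limma at the threshold of 0.05 for the Benjamini-Hochberg adjusted p, where 0.114% of all 22746 probe sets did (26, all higher after estradiol). At an unadjusted p under 0.05 the count was 0 of 10, against 8.54% of all probe sets. That count was 3 without mock replicate 3 (ATHSP22.0, Hsp70-2 and CCT2, against 12.0%) and 1 without estradiol replicate 3 (Cpn60beta4, against 8.05%), all with negative differences. Without replicate 3 of both groups the count was 4 of the 10, against 11.9% of all probe sets. In 0 of the 10 did the 3 estradiol values lie wholly below the 3 mock values, against 7.74% of all probe sets, and in 0 wholly above, against 5.79%. The log2 difference was negative in 7 and positive in 3, where 57.1% of all probe sets were negative. The median over the 10 was -0.062, beside -0.028 over all probe sets.

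What set ATHSP22.0 apart was its spread within groups. Its residual SD was 1.80 log2 units, which ranked 12 among the 22746 probe sets, where the median was 0.19 and the 99th percentile 0.57. Hsp70-2, with 0.44, exceeded 96.9% of all probe sets. Cpn60beta3 and Cpn60beta4, with 0.37 and 0.36, exceeded 93.4% and 92.5%. The other 6 genes ranged from 0.026 for CLPB2 to 0.26 for Cpn60beta2, so at most 75.9% of all probe sets had a smaller SD. A wide spread was not particular to ATHSP22.0. Among heat response genes given below, Fes1A, Hop3, HSA32 and TIL had SDs of 0.89, 0.84, 0.65 and 0.63. They ranked 46, 64, 130 and 155 among all probe sets.

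**Figure D2:**
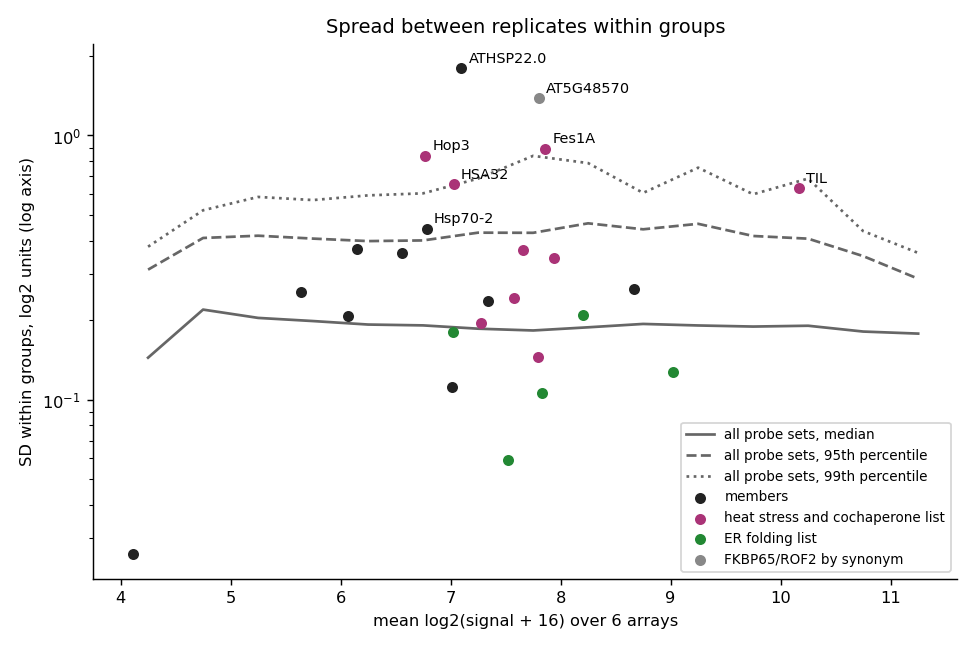
Residual SD within groups (log2 units, log axis) against the mean of log2(signal + 16) over 6 arrays; grey lines give the median, 95th and 99th percentile of all probe sets in bins of mean signal, and points are the named genes. ATHSP22.0 at 1.80 and AT5G48570 at 1.39 lie well above the 99th percentile line. Fes1A at 0.89 and Hop3 at 0.84 also lie above it, while the genes of endoplasmic reticulum folding lie near or below the median line.

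The difference between replicates was tested by an F-test in limma for the replicate number, in a fit that also held the treatment. It asks whether arrays of one number deviate together in both groups. Of the 10 genes 0 passed at an adjusted p under 0.05, where 0.0% of all 22746 probe sets did, and 1, ATHSP22.0, passed at an unadjusted p under 0.05, where 8.16% did. For ATHSP22.0 replicate 3 was lower than replicate 1 by a fitted log2 difference of -3.01, while replicate 2 differed from replicate 1 by -0.22; the adjusted p was 0.594. With the dimmest 25% of probe sets by mean left out, which keeps 9 of the 10 genes, the adjusted p of ATHSP22.0 was 0.00568, and 97 of the 17059 probe sets left passed. With the median as the limit, which keeps 8, it was 0.00602, and 121 of 11373 passed. This call thus depends on the filter for dim probe sets; under the other settings its adjusted p lay between 0.326 and 0.807. For Hsp70-2 replicate 3 was lower than replicate 1 by a fitted -0.57 (adjusted p = 0.612, and 0.26 at the lowest under any setting).

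Mock replicates 1 and 2 were the 2 highest arrays for 3 of the 10 genes (ATHSP22.0, Hsp70-2 and CCT2), where 14.0% of all probe sets had that order. Replicate 3 was the lowest array in both groups for 3 of the 10 (ATHSP22.0, Hsp70-2 and CCT1), where 16.7% of all did. Both orders together held for ATHSP22.0 and Hsp70-2, where 6.56% of all did. These orders were counted after the values had been seen.

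One more heat shock gene is listed under its locus tag and so falls outside the rule on symbols. AT5G48570, for which the RefSeq table gives the synonyms FKBP65 and ROF2, encodes a peptidyl-prolyl isomerase of the FKBP family that is known as an HSP90 partner and a modulator of heat shock factors. Its signal was 705, 651 and 63.4 in mock and 136, 231 and 69.6 with estradiol. As in ATHSP22.0, mock replicates 1 and 2 were the highest, and replicate 3 was the lowest of each group. Its log2 difference was -1.19 (interval -3.25 to 0.87, adjusted p = 0.746), and its residual SD of 1.39 ranked 18 among all probe sets. Between arrays of the same number the difference was -2.24, -1.43 and 0.11. The call of the replicate F-test again depended on the filter, with an adjusted p of 0.594 on all probe sets and 0.0254 when the dimmest 25% were left out, but 0.405 to 0.813 under settings with no filter.

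**Figure D3:**
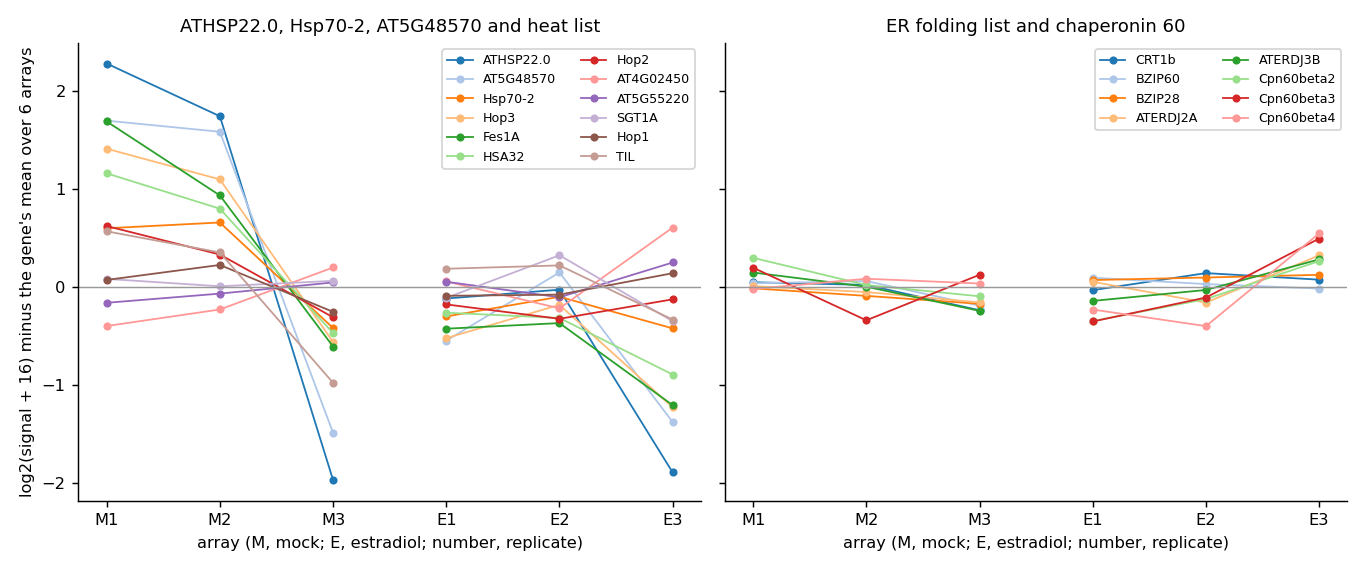
Deviation of log2(signal + 16) from each gene's mean over 6 arrays, for mock (M) and estradiol (E) replicates; lines only link the points of a gene within a group. On the left, ATHSP22.0, AT5G48570, Fes1A, Hop3 and HSA32 are high on mock replicates 1 and 2 and low on estradiol replicate 3. On the right, the genes of endoplasmic reticulum folding stay close to 0. The genes of chaperonin 60 are highest among the estradiol arrays on replicate 3, as are ATERDJ2A, ATERDJ3B and BZIP28 of endoplasmic reticulum folding.

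Partners of HSP70 and HSP90 and other genes of the heat response were read from a list of 26 genes chosen for their known roles. The annotation names a probe set of its own for 9 of them. The rest may be on the array among probe sets with no gene listed or with several. Of the 9, 0 passed the adjusted threshold in either direction, where 0.114% of all probe sets did. The difference was negative in 6 and positive in 3, where 57.1% of all probe sets were negative. Their median was -0.096 beside -0.028 over all probe sets. At an unadjusted p under 0.05, 2 of the 9 were lower, against 4.58% of all probe sets, and 0 were higher, against 900 of all 22746.

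Hop3 (AT4G12400), a scaffold that passes client proteins from HSP70 to HSP90, gave 273, 217 and 57.8 in mock and 59.8, 79.9 and 30.4 with estradiol. Its log2 difference was -1.29 ± 0.53 (SE; interval -2.55 to -0.037, limma adjusted p = 0.579). Fes1A (AT3G09350), an HSP70-binding protein needed for acquired thermotolerance, gave 731, 427 and 136 in mock and 157, 164 and 84.5 with estradiol. Its log2 difference was -1.34 ± 0.56 (SE; interval -2.67 to -0.0059, adjusted p = 0.584). HSA32 (AT4G21320), a heat-induced protein that prolongs acquired thermotolerance, gave 275, 210.4 and 78.0 in mock and 92.6, 88.6 and 54.1 with estradiol, with a log2 difference of -0.99 ± 0.42 (SE; adjusted p = 0.585).

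In these 3 genes the estradiol signal was lower than the mock signal at every replicate number, replicate 3 included, where the log2 differences were -0.67 for Hop3, -0.60 for Fes1A and -0.42 for HSA32. In ATHSP22.0, Hsp70-2 and AT5G48570 the replicate 3 arrays differed by 0.076, -0.0038 and 0.11. For ATHSP22.0 these arrays gave 18.9 in mock and 20.8 with estradiol, near the pseudocount of 16. Hsp70-2 gave 66.3 and 66.1 on them, and AT5G48570 gave 63.4 and 69.6. The part of dim signal was not tested. Whether the 2 sets of genes differ at replicate 3 was not tested either. A lower signal at every number was not particular to heat genes. It was also seen in the shoot and root transcripts LHCB4.3, PYK10 and EXPA18, but not in RCA, LHCB4.2 and EXPA7. The share of all probe sets with this order was not counted. Mock replicate 3 lay below estradiol replicates 1 and 2 for all 3 of Hop3, Fes1A and HSA32, so the groups still overlapped.

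**Figure D4:**
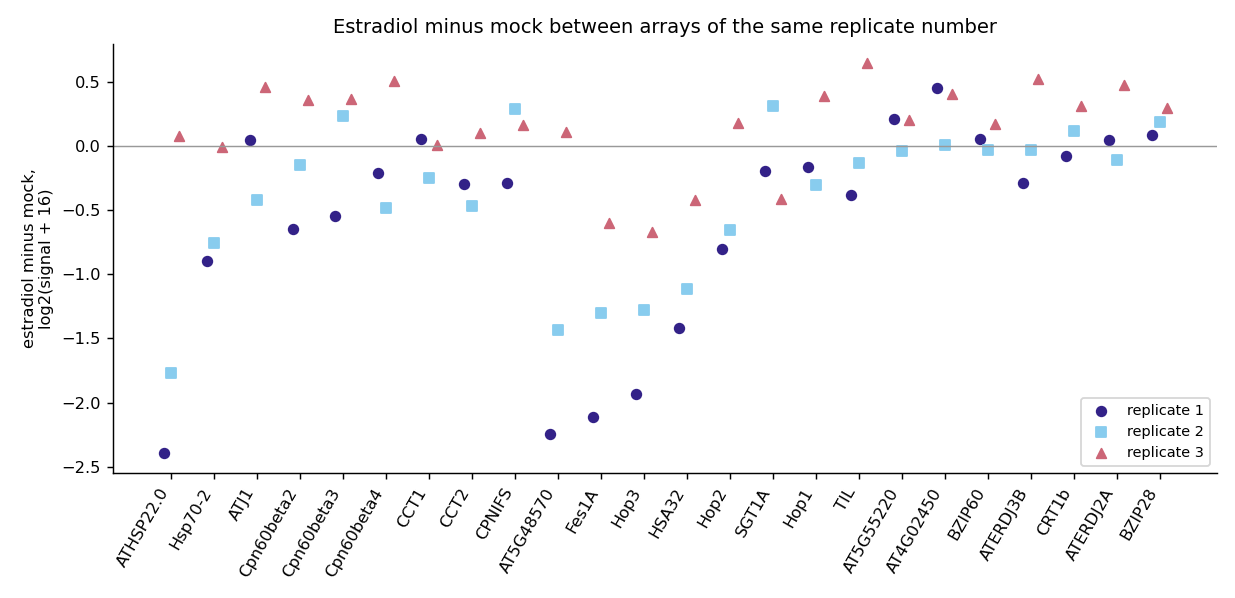
Estradiol minus mock of log2(signal + 16) between arrays of the same replicate number, 3 points a gene, for the named genes other than CLPB2. For ATHSP22.0 replicates 1 and 2 lie at -2.40 and -1.77 and replicate 3 at 0.076; Fes1A, Hop3 and HSA32 have all 3 points below 0.

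The Hop paralogues differed in range. Hop2 (AT1G62740) gave 362, 293 and 182 in mock and 201, 180.0 and 209 with estradiol (log2 difference -0.42, interval -0.97 to 0.12). Hop1 (AT1G12270) gave 114 to 164 over the 6 arrays and a difference of -0.023. TIL (AT5G58070), a lipocalin induced by temperature, gave 1682, 1446 and 566 in mock, and with estradiol it gave 1287, 1318 and 894. Replicate 3 of TIL was the lowest of each group, as in ATHSP22.0, but estradiol replicates 1 and 2 were close to the high mock arrays, and its mean log2 difference was 0.044. SGT1A, an HSP90 partner in immune receptor folding, had a difference of -0.096. The remaining genes of the list, AT4G02450 and AT5G55220, had positive differences of 0.29 and 0.13. Hop3, Fes1A and HSA32 were named as the genes with the smallest p of the list and the others after their values were seen, so their direction is no independent evidence.

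Over the 9 genes, mock replicates 1 and 2 were the 2 highest arrays in 5, against 14.0% of all probe sets, and both orders described above held in 4 (Hop3, Fes1A, HSA32 and TIL), against 6.56%. These counts too were made after the values had been seen. The replicate F-test gave an unadjusted p under 0.05 for 5 of the 9, against 8.16% of all probe sets, and 0 passed after adjustment. These 5 did not share a direction. In AT4G02450, which is among them, replicate 3 was the highest array of each group. Its signal was 137, 156 and 215 in mock and 193, 157 and 290 with estradiol. With the dimmest 25% of probe sets left out, Hop3 and Fes1A passed (adjusted p = 0.0319 and 0.042), and HSA32 and TIL did not (0.0691 and 0.0888). Under settings with no filter the lowest adjusted p was 0.392 for Hop3 and 0.412 for Fes1A.

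Folding in the endoplasmic reticulum and its unfolded protein response were read from 11 listed genes, of which 5 have a probe set of their own by the annotation. Of these 0 passed in either direction, where 0.114% of all probe sets did. The 5 differences were all positive, with a median of 0.12 and a range of 0.067 to 0.19, where 57.1% of all probe sets were negative. With 1 array left out, BZIP60 and ATERDJ3B reached -0.013 and -0.055, and ATERDJ2A reached 0.014. BZIP28 (AT3G10800), a membrane-bound transcription factor of the unfolded protein response, gave 166, 156 and 147 in mock and 176, 180 and 184 with estradiol. Its 3 estradiol values lay above the 3 mock values, as in 5.79% of all probe sets, with a log2 difference of 0.19 ± 0.094 (SE; interval -0.033 to 0.41, limma adjusted p = 0.642). CRT1b, a calreticulin that retains unfolded glycoproteins, had a difference of 0.12, and ATERDJ2A, a J-protein of the translocation pore, 0.14. BZIP60 and ATERDJ3B, both named after their values were seen, had 0.067 each. Mock replicates 1 and 2 were the 2 highest arrays in 0 of the 5, against 14.0% of all probe sets. ATHSP22.0, whose protein resides in the same compartment, thus had a range within mock of 4.25 log2 units, against 0.16 to 0.39 for these 5 genes.

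**Figure D5:**
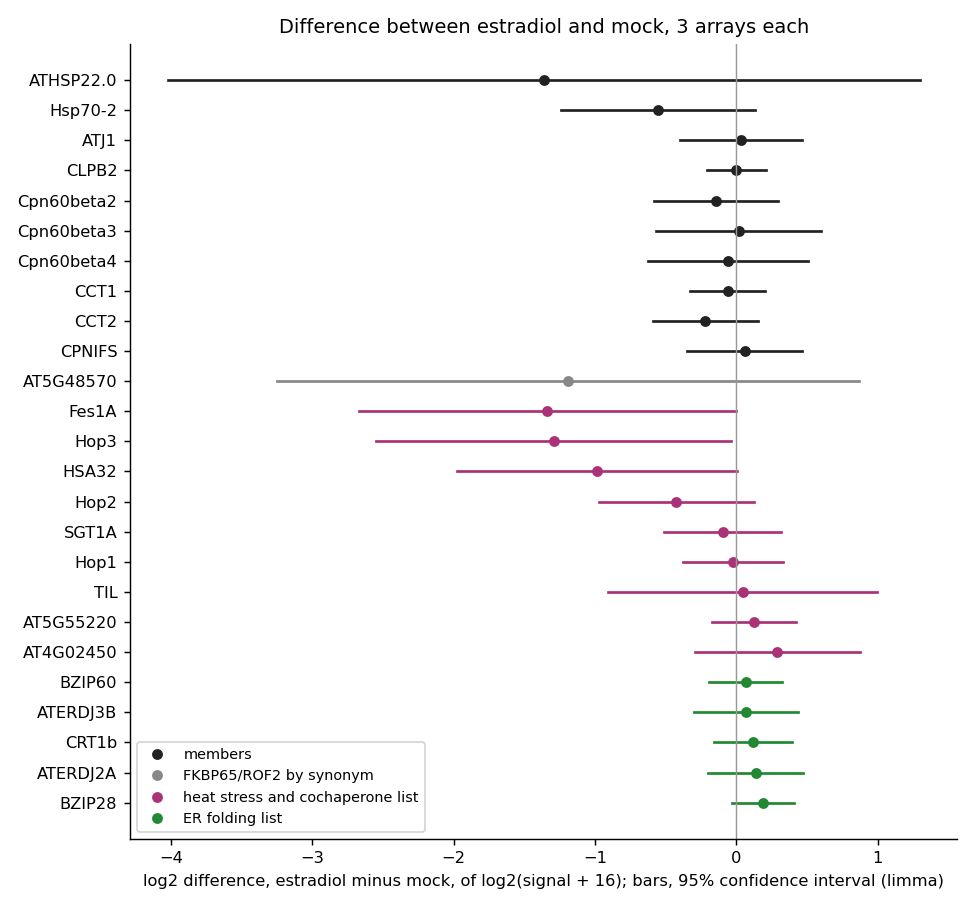
Mean log2 difference (points) between estradiol and mock with limma's 95% confidence interval (bars), 3 arrays each, for the 10 genes chosen by symbol (black), AT5G48570 (grey), the heat stress and cochaperone list (purple) and the endoplasmic reticulum folding list (green). The interval of ATHSP22.0, from -4.02 to 1.299, is the widest, and 23 of the 25 intervals include 0, those of Hop3 and Fes1A ending just below it.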

How the data were processed

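Total RNA of 6 seedling samples was put on Affymetrix arrays with a biotin label, 1 array per sample, per the labels. The deposited values are intensities, 1 per probe set and array, scaled by the authors to a common mean (2% trimmed mean of 100.0 on each array); the submitters' processing notes name GCOS and affy, and how probes were summarised is not given in these sources. Of 22810 probe sets, 64 controls were left out and 22746 tested with no filter. The platform annotation's symbols were brought up to date by Entrez ID with RefSeq's gene table for TAIR10.1: a single gene is listed for 13513 probe sets, several for 503 and none for 8730. The 10 members were the same by the platform's and by the updated symbols. 1 probe set of several genes that matched was left out, and no coordinates or sequences are given.

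Values were transformed as log2(intensity + 16) and fitted with limma 3.58.1 in R 4.3.3 (two-sided, Benjamini-Hochberg over all probe sets, threshold 0.05), by treatment, and, for the F-test, by treatment and replicate number. The smallest p of an exact permutation test with these groups is 0.1, so p-values rest on limma's pooled spread. All 10 members are given with values; pathway genes by the 3 smallest p of a list, others being named after their values were seen. Members, lists and tests were chosen with earlier results of these data known. Deviations of same-numbered arrays from their group means correlated at 0.091, 0.11 and 0.33, and the first is under 0.1, so the fit by treatment has no pairing. The scripts were tested on simulated data. Figures were drawn with matplotlib 3.10.9.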

Additional observations from a re-analysis of the deposited data

How the results depend on the processing

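The count of members past the threshold between estradiol and mock was 0 under each alternative (pairing, scaling, filter, pseudocount, variance model, array weights, arrays used, and membership with or without CCT1, CCT2 and CPNIFS or with synonym matches), as were the counts of both pathway lists. The synonym matches were AT5G48570 and BRK1 (AT2G22640), which is not described above and matched by a synonym only. The fit with the replicate block gave 0 members and 17 calls over all probe sets, against 26. With 1 array per group and number it cannot move a log2 difference, but it changed the errors. For ATHSP22.0 the SE was 0.46 against 1.12 and the interval -2.51 to -0.21. At an unadjusted p under 0.05 it gave 2 members (ATHSP22.0 and Hsp70-2), against 10.1% of all probe sets. The fit by treatment gave 0 members, against 8.54%. The numbers were not shown to pair arrays. Over all probe sets, leaving out dim ones gave 97 calls at the 25th percentile and 88 at the median, array weights gave 92, and the pseudocount of 1 gave 0. Leaving out mock replicate 1, 2 or 3 gave 1, 0 or 2 calls, and leaving out estradiol replicate 1, 2 or 3 gave 0, 0 or 57. The count for the replicate F-test was 1 with the filter at the 25th percentile and 1 with that at the median, against 0. The members' median log2 difference ranged from -0.22 to -0.0069 when each array was left out; the SD of the members' median log2 signal was 0.27 over the mock arrays and 0.050 over the estradiol arrays.

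With mock replicate 3 as the only mock array, an alternative chosen after seeing the data in which its spread is taken from the estradiol arrays, the sign turned for CCT2 (0.11), CLPB2 (0.016), Cpn60beta3 (-0.11), Hsp70-2 (0.14), ATHSP22.0 (1.29), Cpn60beta2 (0.026), CPNIFS (-0.030), CCT1 (0.037) and AT5G48570 (0.89). Without replicate 3 of both groups it turned for ATJ1 (-0.18), Cpn60beta3 (-0.16) and ATERDJ2A (-0.031). CLPB2 also turned after quantile normalization (0.023), median centring (0.027) and array weights (0.0035), and Cpn60beta3 with array weights (-0.15). Among the 10 members, leave-one-out ranges that include 0 were -0.011 to 0.017 for CLPB2, -0.15 to 0.19 for ATJ1, -0.35 to 0.12 for Cpn60beta4, -0.22 to 0.20 for Cpn60beta3, -0.10 to 0.17 for CPNIFS and -0.11 to 0.026 for CCT1. Of the pathway genes, TIL, Hop1, SGT1A, BZIP60 and ATERDJ3B also had ranges on both sides of 0. Dim signal limits CLPB2 and, less, ATJ1; for ATHSP22.0 the limit is the spread between 3 arrays.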
